A study of Rattus norvegicus with 16 samples.

Results

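The microRNAs (miRNAs) of the rat heart were compared with those of the kidney in 4 small RNA libraries: 1 heart and 1 kidney library from a BN-Lx rat and 1 of each from an SHR rat. These are 4 of the 12 libraries that cover 6 tissues of the same adult male rats, in a series of 16 libraries. BN-Lx is the polydactyly-luxate brown Norway strain and SHR is the spontaneously hypertensive rat, and each strain was represented by 1 animal, so that a difference between the strains and a difference between 2 rats cannot be told apart. Heart and kidney of a strain came from the same rat, and the comparison was paired by strain for that reason. The rats had no treatment stated in the sources used here. Whole organs were taken, hence fewer cells of a type and less miRNA per cell cannot be told apart. Reads were summed for each hairpin and arm, the arm being the 5p or 3p side from which the mature miRNA is cut. The heart libraries held 403453 (BN-Lx) and 630467 (SHR) reads and the kidney libraries 544130 (BN-Lx) and 597983 (SHR). At least 1 read in these libraries was seen for 562 arms.

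A miRNA is a short RNA that guides the silencing machinery to messenger RNAs through its seed, which is bases 2 to 8. Some miRNAs are made almost wholly in 1 kind of cell and therefore report on the cells an organ holds. Striated muscle makes mir-1, mir-133, mir-208 and mir-499, epithelium makes the mir-200 family, and the contractile cells of vessel walls make mir-143 and mir-145. Heart and kidney both take part in setting blood pressure, the heart by its pumping and the kidney by its handling of salt and water, and both are rich in vessels. The mature sequences below are those of the miRNAs on which the results turn. They were taken from RefSeq (rat build GRCr8), are written 5′ to 3′, and carry the seed in capitals. The muscle, epithelial and tubule miRNAs come first, then those of the vessel wall and those whose heart to kidney ratio differed most between the rats.
mir-1-3p: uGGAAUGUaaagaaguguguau
mir-133a-3p: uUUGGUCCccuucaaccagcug
mir-133b-3p: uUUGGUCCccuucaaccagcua
mir-208-5p: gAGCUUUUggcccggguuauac
mir-499-5p: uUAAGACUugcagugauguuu
mir-200c-3p: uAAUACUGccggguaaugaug
mir-141-3p: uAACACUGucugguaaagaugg
mir-205: uCCUUCAUuccaccggagucugu
mir-192-5p: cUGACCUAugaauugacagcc
mir-215: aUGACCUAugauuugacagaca
mir-194-2-5p: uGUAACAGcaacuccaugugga
mir-10a-5p: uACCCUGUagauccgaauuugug
mir-196a-5p: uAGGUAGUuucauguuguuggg
mir-196b-5p: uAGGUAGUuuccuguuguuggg
mir-145-5p: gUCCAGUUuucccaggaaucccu
mir-143-3p: uGAGAUGAagcacuguagcuca
mir-126-3p: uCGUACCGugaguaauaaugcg
mir-378-5p: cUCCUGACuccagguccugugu
mir-378-3p: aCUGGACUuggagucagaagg
mir-130a-3p: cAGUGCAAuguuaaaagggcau
mir-322-3p: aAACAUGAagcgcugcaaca

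The sequences of mir-133a-3p and mir-133b-3p share the seed and differ at 1 position. The pair mir-192-5p and mir-215 also shares the seed and differs at 4 positions. mir-196a-5p and mir-196b-5p share theirs and differ at 1 position, whereas mir-200c-3p and mir-141-3p, which lie in 1 cluster, differ at 5 positions and have different seeds. Reads that matched several hairpins had been divided evenly among them, hence arms with such relatives can hold fractions of a read.

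Heart and kidney differed in 80 of the 291 arms that passed the filter on low counts, of which 45 were higher in heart and 35 higher in kidney (edgeR quasi-likelihood test, Benjamini-Hochberg adjusted p under 0.05). These are 27.5% of all arms tested, with 15.5% higher in heart and 12% higher in kidney, and the counts of the miRNA lists that follow are to be read against these shares. The spread in this test was estimated over all 12 libraries of the 6 tissues. With the 4 heart and kidney libraries alone, 12 arms passed (5 higher in heart and 7 higher in kidney). The number also fell to 38 without the SHR heart library. The fold change of the median arm was 0.25 on the log2 scale with trimmed-mean scaling (TMM) and moved to -0.24 when libraries were scaled by their outlier-corrected mean (ocm) and to -0.45 when they were scaled by total reads. The 80 arms called kept their direction under these scalings and under the RLE factors of DESeq2, and 25 of those higher in heart and 35 of those higher in kidney passed the test under all 4. By the rule of at least 5-fold in both strains on the ocm scale, which carries no test, 46 of the 562 arms (8.19%) differed, 13 of them (2.31%) higher in heart and 33 (5.87%) higher in kidney. Both libraries of one organ lay above both of the other on that scale for 183 of the 291 arms (62.9%), so that a lack of overlap is common among them.

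The striated muscle miRNAs that could be tested were higher in heart. Of the 12 arms of this list with a read 8 were tested and all 8 passed, with a median log2 fold change of 8.95 against 0.25 over all arms, and all 8 passed under each scaling. Leaving out a library left 6 (SHR heart or BN-Lx kidney) or 7 (BN-Lx heart or SHR kidney). On the ocm scale, where 1 is the mean level of a known arm once the 3 arms with most reads are set aside, the list summed to 29.0 (BN-Lx) and 37.4 (SHR) in the hearts against 0.060 and 0.130 in the kidneys. mir-1-3p, which restrains growth and sets the excitability of heart muscle, had 6413 (BN-Lx) and 16791 (SHR) reads in the hearts against 1 and 4 in the kidneys. Both heart libraries thus stood far above both kidney libraries, with a log2 fold change of 12.84 (SE 1.16, adjusted p = 7.4e-05). The ratio per ocm was 9698 in the BN-Lx rat, with a counting interval from 1740 to 383118 that reflects the single kidney read, and 4771 in the SHR rat (1863 to 17513).

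The other muscle arms tested had the same direction. mir-133a-3p, which is made from a transcript shared with mir-1, had 2010 and 3013 reads in BN-Lx and SHR heart and 7.5 and 14 in the kidneys, a log2 fold change of 8.71 (SE 0.64, adjusted p = 2.3e-05). The figures for mir-133b-3p were 1933 and 2374 against 5.5 and 9. mir-208-5p, from an intron of a cardiac myosin heavy chain gene, had 894 and 1577 reads in heart and a single read in each kidney library. Its log2 fold change was 10.86 (SE 0.90). The 2 heart libraries were close to each other for these arms and did not overlap with kidney. mir-499-5p, from an intron of another myosin gene, was the muscle arm with the smallest change: 202 and 418 reads in heart against 13 and 65 in kidney (log2 fold change 3.98, SE 0.88, adjusted p = 0.0098). Its adjusted p was 0.055 without the SHR heart library and 0.060 without the BN-Lx kidney library. The skeletal muscle miRNA mir-206 had 2 and 0 reads in heart and 2 and 7 in kidney and did not reach the filter.

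**Figure D1:**
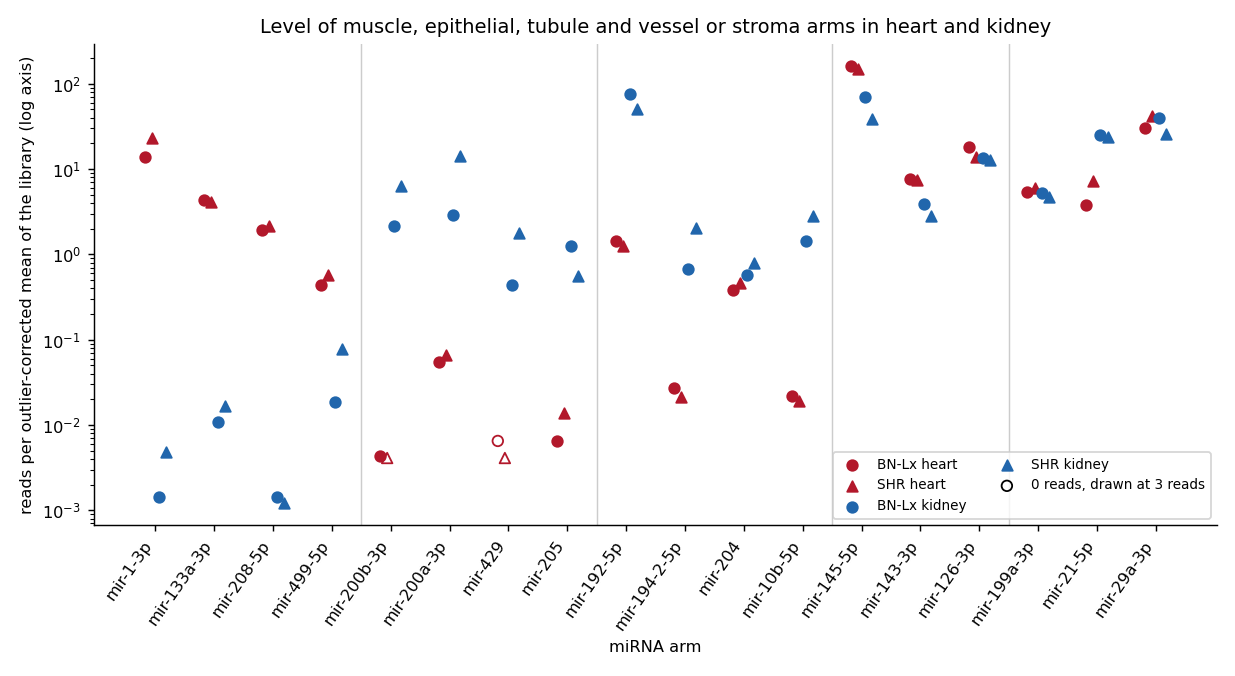
Level of selected muscle, epithelial, tubule, Hox and vessel or stroma arms in the 4 libraries, in reads per ocm of the library on a log axis. Each library is 1 point (circle BN-Lx, triangle SHR, red heart, blue kidney), with open points where 0 reads were drawn at the level of 3 reads. The muscle arms at the left lie far higher in heart, the epithelial arms and mir-192-5p far higher in kidney, mir-126-3p and mir-199a-3p lie close together in all 4 libraries, and mir-29a-3p overlaps between the organs.

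The epithelial miRNAs were the counterpart in kidney. Of the 8 arms tested in the list of the mir-200 family, mir-205 and mir-203, 7 were higher in kidney and none higher in heart, with a median log2 fold change of -6.04. The list summed to 0.132 and 0.133 per ocm in the BN-Lx and SHR hearts against 9.03 in BN-Lx kidney and 24.8 in SHR kidney. mir-200b-3p, a repressor of the ZEB factors that switch off epithelial genes, had 2 (BN-Lx) and 0 (SHR) reads in the hearts against 1485 and 5211 in the kidneys. It was 491-fold higher in kidney in the BN-Lx rat and at least 1528-fold higher in the SHR rat (log2 fold change -10.67, SE 2.17, adjusted p = 0.0063). A count of 0 was taken as 3 reads per library for such bounds. mir-200a-3p, cut from the same primary transcript, had 25 and 49 reads in heart against 2040 and 11844 in kidney (54.0- and 213-fold, adjusted p = 0.0098). The third member of that cluster, mir-429, was not seen in either heart library and had 308 and 1488 reads in kidney, hence at least 67.9-fold and at least 436-fold.

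The members of the second cluster were lower in number. mir-200c-3p had 2 and 0 reads in heart against 108 and 179 in kidney (adjusted p = 0.0094). For mir-141-3p 1 and 4 reads stood against 81 and 197 (adjusted p = 0.043), and with any 1 library left out the adjusted p was between 0.070 and 0.17. mir-205, a miRNA of stratified and urinary epithelium, had 3 and 10 reads in heart and 874 and 469 in kidney, with a log2 fold change of -5.81 (SE 0.87, adjusted p = 0.0021). mir-203-3p, which limits the renewal of epithelial cells, had 24 and 33 reads against 1365 and 900. All these kidney libraries were above all heart libraries. The number of arms of this list that passed was 3 without SHR heart, 5 without SHR kidney, 6 without BN-Lx kidney and 7 without BN-Lx heart, and it was 8 with the other scalings. In the mir-183 cluster, known from sensory and other epithelia, both arms tested were higher in kidney. mir-182 had 10 and 16 reads in heart against 433 and 806 in kidney and mir-183-5p had 1 and 0 against 70 and 189. Neither passed when SHR heart or SHR kidney was left out, nor did mir-182 without BN-Lx heart (adjusted p = 0.071).

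Within the kidney the epithelial arms were not equally high in both rats. The SHR kidney had more reads of mir-200b-3p, mir-200a-3p and mir-429 than the BN-Lx kidney and fewer of mir-205 and mir-203-3p, at a similar total. The test of SHR against BN-Lx in kidney passed for none of these arms, with adjusted p of 0.909, 0.842 and 0.879 for the first 3 and 0.909 for both others. The minor arm mir-200b-5p had 1 read in BN-Lx kidney and 326 in SHR kidney and none in heart, and did not reach the filter.

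Among the miRNAs of kidney tubules, 4 of 6 arms tested were higher in kidney and none higher in heart. mir-192-5p, which is abundant in tubules and in gut and liver, was the most read arm of both kidney libraries, with 52903 reads in BN-Lx (9.72% of the library) and 42530 in SHR (7.11%) against 667 and 917 in heart. It was 52.4-fold and 40.8-fold higher in kidney, the most precise of the large changes (log2 fold change -5.04, SE 0.26, adjusted p = 3.3e-06). Its other arm, mir-192-3p, had 4 and 9 reads in heart against 609 and 517 in kidney. mir-194-2-5p, made from the same transcript as mir-192, had 12.5 and 15.5 reads in heart against 471.5 and 1693 in kidney (log2 fold change -5.32, adjusted p = 0.0017). mir-194-1, its near copy, had 5.5 and 7.5 against 92.5 and 885 and was the member with the widest gap between the kidneys, with an adjusted p of 0.239 for SHR against BN-Lx there. By contrast mir-215, which shares the seed of mir-192-5p, had 10 and 6 reads in heart and 31 and 14 in kidney (adjusted p = 0.688). mir-204, an epithelial miRNA of kidney and eye, had 175 and 338 reads in heart and 401 and 660 in kidney (adjusted p = 0.679). Across the 6 tissues, mir-192-5p had a mean level of 144 per ocm in liver, 63.4 in kidney and between 0.965 and 4.01 in the other 4, of which heart had 1.35. Of this list 3 arms passed without SHR heart.

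All 8 arms tested from hairpins that lie in the Hox gene clusters were higher in kidney, with a median log2 fold change of -6.33, or -4.99 with arms at 0 in both heart libraries set to their bound. Hox genes mark position along the body axis and these miRNAs share their domains. mir-10b-5p had 10 and 14 reads in heart against 1011 and 2327 in kidney (log2 fold change -6.25, SE 0.72). mir-10a-5p had 51 and 89 against 1473 and 2806. mir-196a-5p had 1 and 0 reads in heart against 93 and 311 in kidney, and its relative mir-196b-5p had 0 in both hearts against 34 and 229. The opposite arm of the latter, mir-196b-3p, had 0 and 2 against 205 and 121, and mir-196c-3p had 1 and 10 against 397 and 326. Heart and kidney did not overlap for any of these arms. The arms that passed numbered 4 without SHR heart and 4 without SHR kidney. Outside the lists, mir-672-5p had 0 and 1 reads in heart against 100 and 146 in kidney (log2 fold change -6.94, SE 0.82, adjusted p = 3.8e-04).

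**Figure D2:**
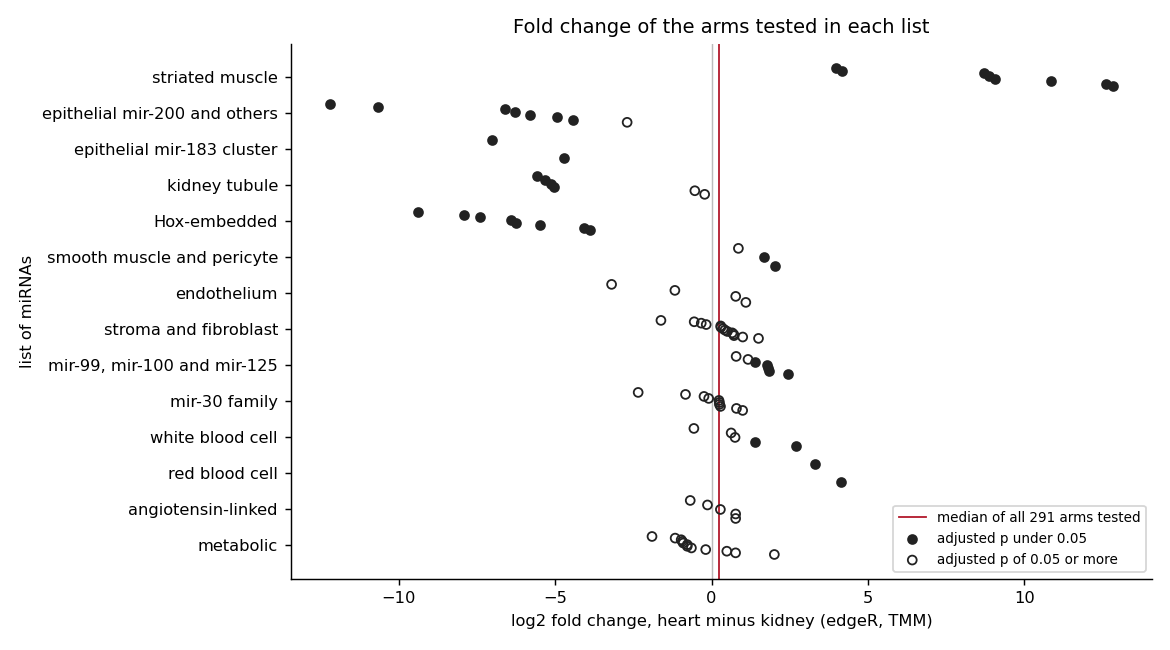
Log2 fold change of heart minus kidney (edgeR, TMM scaling) for each arm tested in 14 lists, 1 point per arm, filled where the adjusted p was under 0.05, with the median of all 291 arms as a red line. Striated muscle lies at the right, and the epithelial, tubule and Hox lists lie at the left, except mir-204 and mir-215 of the tubule list. Endothelium, stroma, the mir-30 family and the angiotensin-linked and metabolic lists have no filled point.

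The miRNAs of vessels and stroma differed much less, and those that passed were higher in heart. In the smooth muscle and pericyte list 2 of 3 arms passed, both higher in heart. mir-145-5p, which drives the contractile state of smooth muscle, had 74892 reads in BN-Lx heart, 108076 in SHR heart, 48733 in BN-Lx kidney and 32473 in SHR kidney. It held 18.6% and 17.1% of the heart libraries and 8.96% and 5.43% of the kidney libraries. The heart to kidney ratio per ocm was 2.32 in the BN-Lx rat and 3.78 in the SHR rat. With TMM scaling the log2 fold change was 2.04 (SE 0.27, adjusted p = 7.2e-04). Going from TMM to ocm scaling moved the log2 fold change of the median arm by -0.48, so these values are not on the same scale. mir-143-3p, from the same transcript, had 3518 and 5381 reads in heart and 2694 and 2323 in kidney (log2 fold change 1.67, SE 0.33, adjusted p = 0.0059). Heart exceeded kidney in both rats for both miRNAs, and both passed without any 1 of the libraries and under each scaling. The adjusted p was 0.10 and 0.11 with heart and kidney libraries alone. mir-145-3p, the minor arm, had 49 and 71 reads against 53 and 68 and did not pass (adjusted p = 0.27). Among the 6 tissues mir-145-5p was highest in heart, at a mean of 155 per ocm, followed by testis at 110 and spleen at 69.5, with kidney at 54.4. The order among tissues was not tested.

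No arm of the endothelial list passed, of 4 tested. mir-126-3p, the miRNA by which endothelium keeps vessel integrity, had 8311 and 10211 reads in BN-Lx and SHR heart and 9364 and 10760 in kidney (log2 fold change 0.77 with TMM scaling, SE 0.32, adjusted p = 0.103). Its levels per ocm were 18 and 13.9 in heart and 13.4 and 12.9 in kidney, so that heart and kidney nearly met. mir-221-3p had 3 and 10 reads in heart and 141 and 69 in kidney (adjusted p = 0.052), and mir-222-3p had 4 and 37 against 20 and 132 (adjusted p = 0.434). mir-221-3p was therefore on the edge of the test and passed with the RLE, ocm and total read scalings, at adjusted p of 0.044, 0.035 and 0.030, and it was at least 5-fold higher in kidney in both rats.

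Of the 14 arms tested in the stroma and fibroblast list none passed, and the median log2 fold change of 0.40 was close to that of all arms. mir-199a-3p, from mesenchymal cells, had 2508 and 4408 reads in heart and 3641 and 3895 in kidney (adjusted p = 0.596). mir-29a-3p, which represses collagens, had 14173 and 30380 against 27384 and 21706 (adjusted p = 0.150). mir-21-5p, a miRNA that is raised in fibrosis, had 1752 and 5352 reads in heart and 17428 and 19621 in kidney, ratios of 6.58 and 3.23 in favour of kidney. The kidney libraries lay close together, the heart libraries were further apart, and the adjusted p was 0.153. Of this list 1 arm passed, higher in heart, without BN-Lx heart and 1 without SHR kidney.

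Blood cells carry miRNAs of their own. Both red cell arms tested and 2 of 5 white cell arms tested were higher in heart. mir-451-5p, which is made in maturing red cells, had 10169 and 7733 reads in heart against 917 and 1016 in kidney (log2 fold change 4.15, SE 0.54, adjusted p = 6.8e-04), and mir-144-5p, from the same transcript, had 145 and 233 against 31 and 38. The red cell list summed to 22.3 and 10.9 per ocm in heart and 1.36 and 1.27 in kidney. In the white cell list, mir-150-5p, a lymphocyte miRNA, had 6872 and 9040 reads against 2848 and 1642 (log2 fold change 2.71, SE 0.36). The other, mir-223-3p, a myeloid miRNA, had 2205 and 4775 against 2783 and 1757 (log2 fold change 1.38, SE 0.31, adjusted p = 0.0094) and did not pass with ocm scaling (adjusted p = 0.088), with total reads (0.14), without SHR heart (0.078) or without SHR kidney (0.057). mir-142-5p had 91 and 97 reads in heart and 102 and 138 in kidney (adjusted p = 0.458). The part of blood left in the organs in the vessel values above was not tested.

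In the list of mir-99a, mir-100, mir-125b-1 and mir-125b-2, from small clusters expressed with let-7 in many tissues, 5 of 7 arms were higher in heart. Their relatives mir-99b and mir-125a were not in this list. mir-125a-5p, among the 10 most read arms of both organs, had 16041 (BN-Lx) and 20350 (SHR) reads in heart against 18575 and 26540 in kidney. Its levels per ocm were 34.7 and 27.8 in heart and 26.6 and 31.9 in kidney, so that the organs overlapped. mir-125b-1-5p had 9107 and 12296.5 reads in heart against 4619.5 and 6657 in kidney (log2 fold change 1.82, SE 0.31). mir-125b-2-5p, which shares most of its reads with mir-125b-1-5p, had 9028 and 12112.5 against 4566.5 and 6645. These arms are therefore not separate results in the count above. mir-100-5p had 2282 and 3091 against 1017 and 1926, and mir-99a-5p had 10693 and 13069 against 6679 and 10296 (log2 fold change 1.40, adjusted p = 0.0073). With total reads as the scale 3 of the 7 passed, and without BN-Lx heart 3 passed. In the other direction, let-7b-5p had 240 and 709 reads in heart against 1972 and 3746 in kidney (log2 fold change -1.84, adjusted p = 0.0098). Its call was lost without BN-Lx heart (adjusted p = 0.080), SHR heart (0.055) or SHR kidney (0.057).

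No arm passed among the 10 tested of the mir-30 family, the 5 of the angiotensin-linked list or the 12 of the metabolic list, of which 1, 0 and 5 had an unadjusted p under 0.05, as did 3 of the 4 endothelial arms and 113 of all 291 arms. mir-30a-5p, of a family abundant in both heart muscle and kidney podocytes, had 9213 and 12261 reads in heart and 18429.5 and 29489 in kidney (adjusted p = 0.727). mir-132-3p, which responds to angiotensin II in several cell types, had 18 and 36 reads against 54 and 25. The calls in the metabolic list depended on the scaling, with 4 of its arms higher in kidney with RLE factors and 5 with ocm or total reads. The mir-103 arms were among these, with 3937 and 6828 reads of mir-103-1-3p in heart and 16764 and 16064 in kidney and an adjusted p of 0.056 with TMM scaling. mir-103-2-3p shares these reads, with 16763 and 16065 in kidney, and is not a separate result. Among lists of cells that neither organ should hold in number, the testis list summed to 1.80 per ocm in BN-Lx kidney and to between 0.080 and 0.153 in the other 3 libraries. Of the sum in BN-Lx kidney, mir-34c-5p alone held 1.65. The arms of this list are given with the differences between the rats. The 2 liver arms and the 3 neuron arms did not pass, the latter being copies of mir-124 that share their reads. 1 pancreas arm, mir-375-3p, was higher in kidney with 32 and 21 reads against none in either heart.

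The most read arms of the organs were largely shared. Of the 10 most read arms, 7 were the same in heart and kidney, and the 10 held 54.5% and 54.7% of the reads of the BN-Lx and SHR heart libraries and 49.6% and 45.2% of those of the kidney libraries. mir-1-3p was in the heart set, mir-192-5p and mir-21-5p in the kidney set. mir-24-3p and mir-23a-3p, which are clustered and found in most tissues, were higher in heart. mir-24-1-3p, whose reads are split evenly with the identical mir-24-2-3p, had 27514 and 44382 reads against 25918 and 28492.5 (log2 fold change 1.24, adjusted p = 0.0044). mir-23a-3p had 18117.5 and 28601 against 13415.5 and 14338 (log2 fold change 1.60, adjusted p = 0.0025). The mir-24 arms did not pass with total reads (adjusted p = 0.080) or without SHR heart (0.055).

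**Figure D3:**
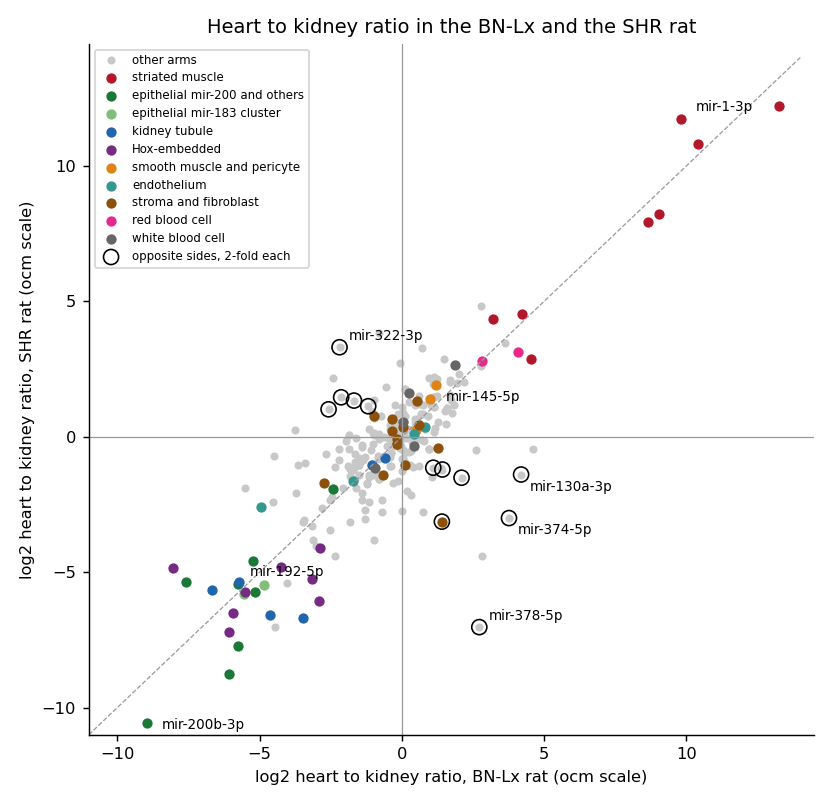
Log2 heart to kidney ratio on the ocm scale in the BN-Lx rat (x axis) and in the SHR rat (y axis). Each arm tested is 1 point, coloured by list, with a dashed line of equality. The muscle, epithelial, tubule and Hox arms lie in the same corner in both rats, except mir-204 and mir-215 of the tubule list, which lie nearer the centre. The circled points are the 12 arms on opposite sides of 0 by at least 2-fold in each rat. These were sought among arms with at least 20 reads over both organs in each rat.

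The question of where the rats disagree was put to all 291 arms by testing whether the heart to kidney ratio differed between SHR and BN-Lx. No arm passed in edgeR (0.0% of those tested), 17 had an unadjusted p under 0.05, and the smallest adjusted p was 0.054, for mir-322-3p, mir-130a-3p and mir-378-5p. DESeq2 called 6 arms, RLE factors in edgeR 3, and edgeR without the filter on low counts 8. The arms called by RLE factors were mir-378-5p, mir-322-3p and mir-130a-3p, which DESeq2 called together with mir-106b-3p, mir-34c-5p and mir-99a-3p. Without the filter these were called except mir-106b-3p, and with them mir-374-5p, mir-34b-5p and mir-34a-5p. mir-34a-5p, a target of p53, had 202 and 3218 reads in BN-Lx and SHR heart and 537 and 259 in kidney (log2 difference 4.40, adjusted p = 0.488 with the filter and 0.0056 without). mir-99a-3p had 14 and 1 reads in heart and 0 and 24 in kidney. With 1 library for each organ of each rat, the spread in these tests came from the other tissues. By size alone, 12 of the 266 arms with at least 20 reads over both organs in each rat (4.51%) were at least 2-fold higher in heart in one rat and at least 2-fold higher in kidney in the other. Of the arms in the muscle, epithelial, tubule, Hox and smooth muscle lists none was among them, whereas the stroma list held mir-29c-5p and the metabolic list mir-378-5p. Most arms of the former lists had already been called in 1 direction above, so their absence is not a separate result.

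Among these 12 arms the widest disagreement was that of mir-378-5p, from an intron of a coactivator gene of energy metabolism. It had 5890 reads in BN-Lx heart but 21 in SHR heart, against 1349 and 3110 in the kidneys, hence the ratio of heart to kidney was 6.60 in BN-Lx and 0.00767 in SHR. Among the heart and kidney libraries, SHR heart was the one far from the rest. The other arm of the hairpin did not follow, since mir-378-3p had 3641 and 17506 reads in the BN-Lx and SHR hearts against 9146 and 11579 in kidney. In other tissues of these rats the SHR to BN-Lx ratio of mir-378-5p was 0.13 in brain, 0.16 in spleen, 0.79 in testis and 2.13 in liver. The BN-Lx and SHR reads were 356 and 38 in brain and 883 and 91 in spleen. They were 35 and 31 in testis and 681 and 1556 in liver. SHR heart was therefore not the only SHR library with few reads of this arm. Within heart, SHR against BN-Lx had an unadjusted p of 3.8e-04 for this arm and an adjusted p of 0.111.

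mir-130a-3p, a miRNA of endothelial and blood progenitor cells, had 725 and 707 reads in heart, 60 in BN-Lx kidney and 2109 in SHR kidney. The hearts were alike and the kidneys were not, with ratios of 18.3 and 0.381. It was 1 of 2 arms (0.687% of the 291) that passed the test of SHR against BN-Lx within kidney (log2 difference 5.06, SE 0.87, adjusted p = 0.034), and within heart 0 arms passed in edgeR, where 18 had an unadjusted p under 0.05. mir-322-3p, from a cluster tied to growth arrest and muscle differentiation, had 472 and 2471 reads in heart and 3253 and 284 in kidney, so that both organs contributed to ratios of 0.219 and 9.89. mir-374-5p had 45 and 21 reads in heart against 5 and 191 in kidney. Among the arms with fewer reads, mir-29c-5p had 93 and 24 in heart against 53 and 239 in kidney and mir-20b-5p had 16 and 29 against 106 and 12. For mir-136-5p and mir-532-3p, which had at most 21 reads in a library, the counting interval of the SHR ratio reached past 1.

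**Figure D4:**
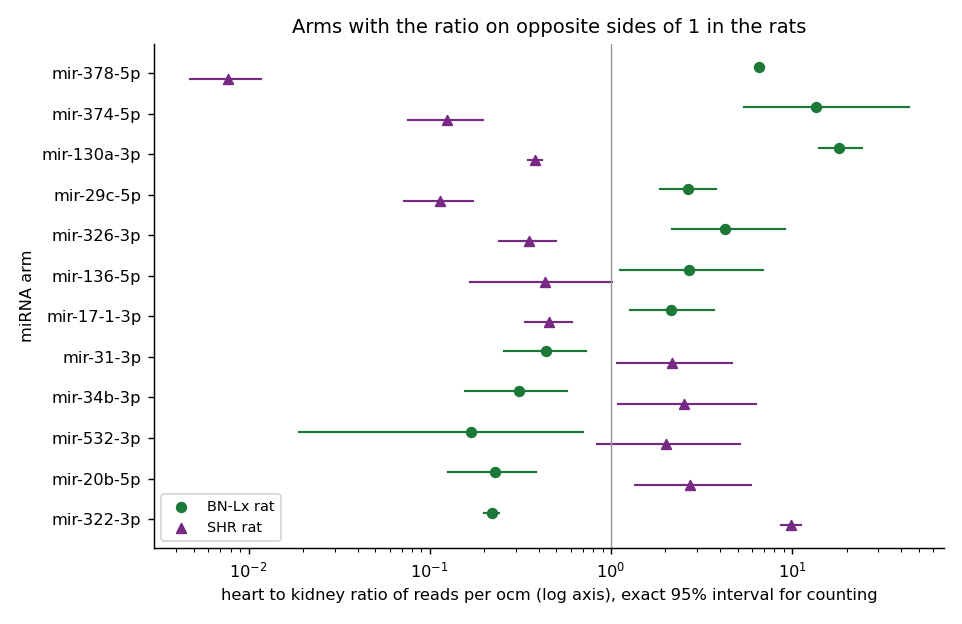
Heart to kidney ratio per ocm (log axis) in the BN-Lx rat (green circles) and the SHR rat (purple triangles) for the 12 arms with ratios on opposite sides of 1, with exact 95% intervals that cover counting error only. mir-378-5p and mir-322-3p are farthest apart relative to their intervals, whereas the SHR intervals of mir-136-5p and mir-532-3p reach past 1.

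The other arm that passed within kidney was mir-34c-5p, a miRNA abundant in testis, with 1151 reads in BN-Lx kidney and 124 in SHR kidney against 34 and 66 in heart (log2 difference of SHR minus BN-Lx in kidney -3.28, SE 0.56, adjusted p = 0.034). In the much smaller testis libraries it had 374 (BN-Lx) and 735 (SHR) reads, and in the brain libraries 1009.5 and 1504. It was thus not confined to testis. It was also called higher in kidney than in heart (log2 fold change -2.99, adjusted p = 0.046), but not without BN-Lx kidney, where its log2 fold change was -0.09 (adjusted p = 0.91). Other arms abundant in testis were also seen in the BN-Lx kidney library. mir-202-5p had 46 reads there and 1 in SHR kidney, mir-742-3p had 42 and 1, and mir-34b-3p had 63 and 9. Relative to the testis of the same rat, the BN-Lx kidney level ranged widely over these arms. It was 0.319% for mir-202-5p, 0.314% for mir-742-3p and 0.537% for mir-34b-3p. For mir-202-3p it was 0.604% (2 reads in BN-Lx kidney) and for mir-34c-3p 1.47% (14 reads). It was 13.9% for mir-34c-5p, 18.9% for mir-34b-5p (50 reads, against 2 in SHR kidney) and 22.7% for mir-742-5p (5 reads, against 0). In BN-Lx testis, however, mir-742-5p stood at 0.032 per ocm, under the floor of 3 reads (0.095), and mir-34b-5p at 0.38, so these percentages are imprecise. The part of testis RNA in the BN-Lx kidney library was not tested. Neither within-kidney call was made without the testis libraries or with total reads as the scale.

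The hairpins of mir-378, mir-322 and mir-130a each had a second arm that was steadier than the one on which the rats disagreed. For 95 hairpins with both arms seen and at least 100 reads in each of the 4 libraries, the share of reads on the 5p arm was compared, and none had its heart libraries at least 10 points to one side of its kidney libraries. For 4 of them, however, the share ranged over at least 50 points among the libraries, a pattern that was described after the values were seen. The 5p share of mir-130a was 14.4% and 18.4% in BN-Lx and SHR heart, 74.6% in BN-Lx kidney and 5.4% in SHR kidney. That of mir-378 was 61.8% and 0.1% in heart and 12.9% and 21.2% in kidney, and that of mir-322 was 66.7% and 32.0% against 12% and 61.5%. For mir-106b the shares were 42.0% and 74.3% against 96.9% and 69.1%. In each of these hairpins except mir-378 the 5p arm varied less than the 3p arm: mir-130a-5p had 122 and 159 reads in heart and 176 and 120 in kidney, and mir-106b-5p had 94 and 156 against 250 and 186 while mir-106b-3p had 130 and 54 against 8 and 83.

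**Figure D5:**
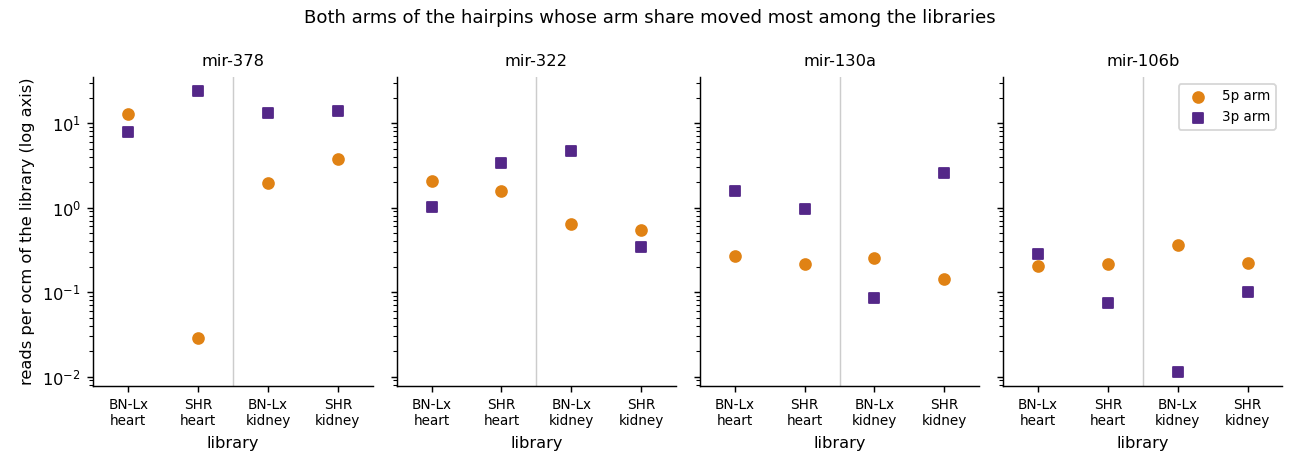
Reads per ocm (log axis) of the 5p arm (orange circles) and the 3p arm (purple squares) of mir-378, mir-322, mir-130a and mir-106b in each of the 4 libraries. In mir-378 the 5p arm drops in SHR heart, and in mir-130a and mir-106b the 3p arm drops in BN-Lx kidney while the 5p arm stays near its level elsewhere.

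The ends of the reads were nearly the same in both organs. Of 101 arms with at least 100 reads in each library, none (0.0%) differed between the organs by at least 10 points in the share of reads at the commonest start, and 4 (3.96%) differed by at least 0.3 nt in mean length. All 4 were shorter in heart. mir-351-5p averaged 20.6 and 20.5 nt in BN-Lx and SHR heart and 21.4 and 21.7 nt in kidney, a gap of 0.85 nt between the nearest libraries. For mir-22-3p the means were 20.2 and 20.3 nt against 20.9 and 21.3 nt, and mir-378-3p and let-7b-5p were the others. The rats differed within an organ by a median of 0.084 nt. No test was made of these lengths, and over all 101 arms the median length was 21.6 and 21.5 nt in heart and 21.6 and 21.6 nt in kidney.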

How the data were processed

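The authors prepared total RNA from whole tissue, took the 15–40 nt fraction by gel, amplified it and sequenced it on SOLiD. They trimmed the linker and aligned reads to hairpins with SHRiMP, keeping perfect matches outside the loop and dividing reads with several hits evenly. The deposited values are expected counts (14.2% of the heart and kidney reads are in values that are not whole), without normalization. Here reads of 17 to 26 nt were summed per hairpin and arm, the arms being told apart by read midpoints at least 25 nt apart. A hairpin with reads on 1 arm only is named without an arm. The ocm is the mean over arms of known hairpins (594 in all) without the 3 with most reads, as in the study. It was 462, 732, 698 and 832 reads in BN-Lx heart, SHR heart, BN-Lx kidney and SHR kidney. Sums were rounded and tested with edgeR 4.0.16 (R 4.3.3, TMM, filterByExpr over the 4 libraries, glmQLFTest, two-sided), with tissue and strain as terms over the 12 libraries of the six-tissue set (26880 to 1064894 reads). SHR against BN-Lx within each organ, and the difference of ratios, came from the same model with terms for each organ. DESeq2 1.42.0 was an alternative. The strain term pairs heart and kidney of 1 rat, as the labels and the study describe. Across arms, the SHR minus BN-Lx deviations in heart and in kidney correlated at -0.066. P-values rest on 1 rat per strain and organ.

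Most arms named were drawn from the stronger arms of the listed hairpins with 100 reads, the 10 most read, the 10 with the largest called folds in each direction, the 10 with the smallest p for the difference between strains, those on opposite sides, and the 5 with the largest shifts of ends. Some arms that met these rules, such as mir-146a-5p, are not named in the text. Members and lists were chosen with earlier results of these data known. Intervals are exact, at 95%, and floors are 3 reads, both covering counting error only, since reads were amplified without molecular identifiers. RefSeq names matched 198 of the 291 arms tested. Code was tested on simulated data.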

Additional observations from a re-analysis of the deposited data

Results flagged for a closer look

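The 12 arms with a heart to kidney ratio at least 2-fold above 1 in one rat and at least 2-fold below 1 in the other are listed by the log2 difference of the ratio on the ocm scale, SHR minus BN-Lx. The edgeR test of this difference passed for none of them, and with 1 library for each organ of each rat the direction in each strain is that of a single pair of libraries. The difference was -9.75 for mir-378-5p, -6.77 for mir-374-5p, -5.58 for mir-130a-3p and -4.54 for mir-29c-5p. It was -3.61 for mir-326-3p, with 34 and 42 reads in BN-Lx and SHR heart against 12 and 136 in kidney. It was -2.63 for mir-136-5p, with 16 and 8 against 9 and 21, and -2.25 for mir-17-1-3p, with 37 and 65 against 26 and 163. In the other direction it was 2.31 for mir-31-3p, with 21 and 25 reads in heart against 72 and 13 in kidney, and 3.02 for mir-34b-3p, with 13 and 20 against 63 and 9. It was 3.59 for mir-532-3p, with 2 and 16 against 18 and 9, and 3.59 for mir-20b-5p. For mir-322-3p it was 5.49.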

How the results depend on the processing

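Of the 41 arms that met the rules for naming and passed the test, 540 of 608 values under an alternative kept direction and call, 68 lost the call and none reversed. Of the 47 other arms that met these rules, 657 of 693 values kept their side of the threshold and 36 passed. The count of arms called (80, 45 higher in heart and 35 in kidney) was 84 (47 and 37) with no replicate block for the pairing by rat. It was 12 (5 and 7) with heart and kidney libraries only, where the spread rests on a single residual degree of freedom, and 38 to 72 with 1 library left out (25 to 39 higher in heart, 13 to 33 in kidney). Fewer arms were higher in heart with total reads (25), and more were higher in kidney with ocm (56) or total reads (58). Directions split 41 to 45 with RLE factors, 37 to 56 with ocm and 25 to 58 with total reads. In place of the test, 5-fold in each strain gave 46 (13 and 33). That rule gave 83 (26 and 57) in BN-Lx alone, 85 (22 and 63) in SHR alone, 125 (48 and 77) at 2-fold and 27 (7 and 20) at 10-fold. The test of the difference between strains, 0 in edgeR, gave 6 with DESeq2, 3 with RLE factors and 8 with no filter. At 50 reads in each strain 6 arms were on opposite sides. The 2 strain calls in kidney became 0 without testis libraries and with total reads. At 500 reads 1 arm kept a length shift. With 1 library left out, list medians minus that of all arms ranged from 8.51 to 9.32 (striated muscle), -6.52 to -5.34 (epithelial), -5.46 to -3.74 (tubule), -6.92 to -5.97 (Hox), -1.22 to 0.40 (endothelium), 0.057 to 0.45 (stroma), 0.25 to 0.98 (white blood cell), -0.054 to 0.55 (angiotensin-linked) and -1.22 to 1.87 (neuron). The causes were not tested. Depth limits arms near 0 in an organ, whose folds are bounds.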
